A study of Rattus norvegicus with 140 samples.

Results

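The arrays described here are those of hearts taken when heated rats reached their maximum core temperature, set against hearts of time-matched controls. They were chosen by the titles of the samples, which give organ, time point and treatment, and comprised 11 of the 140 arrays of the study, 5 from heat-stressed and 6 from control rats. All rats were male Fischer 344 animals of about 2 to 3 months that carried telemetry implants for core temperature, heart rate and arterial pressure. Heat-stressed rats were kept conscious in an incubator at 37 °C until core temperature reached 41.8 °C, the point called TcMax, and were killed there without recovery. Control rats stayed at ordinary housing temperature and were killed at the matching time. The sample labels say that controls also spent a short time in the unheated incubator, whereas the methods say that they never entered it, so handling of the controls is not settled. Hearts were cut and pulverised frozen, so each array measured all cell types of the piece together. For 1 further heated rat there was no heart array, because it failed the scan quality control. Liver, kidney and lung of the same rats were measured on their own arrays, 6 heated and 6 control in each organ at TcMax, and other hearts were taken after 24 and 48 hours of recovery.

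A rise in temperature unfolds proteins and releases the transcription factor HSF1, which then switches on chaperone genes. Beside this core program, heat also activates the immediate early genes, a set of transcription factors and signalling genes that stress kinases and growth factors induce within minutes without new protein synthesis. The heart carries an added load in heat, because cardiac output rises to bring warm blood to the skin. The account below sets aside a list of heat shock proteins and cochaperones and follows the other genes of the heart.

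Each array gave 1 value for each of 29214 transcript IDs of the Affymetrix Rat Gene 1.1 ST design, here called intensity, which has no unit and was normalised for each organ apart. Differences are heated minus control on the log2 scale after adding 16 to each intensity, which understates the change of dim genes, and are given with their standard error. Tests used limma, a linear model with spread shared across IDs, over the 14607 IDs of the heart that varied most, and a gene is said to have risen or fallen where the Benjamini-Hochberg adjusted p was under 0.05 and the difference was at least 2-fold. Each array is a rat of its own, and their number limits the precision.

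The heart pieces differed in what they contained: liver transcripts were high in 2 heated hearts only, brown fat transcripts in 2 control hearts only, and atrial transcripts in hearts of both groups. Of 88 marker genes tested for 17 cell types and tissues, 0 rose and 1 fell, the pericyte marker Kcnj8. Summed intensity of 8 cardiomyocyte markers was even, at 33570 to 40590 in heated hearts and 33840 to 42400 in control hearts. Albumin, a liver transcript, read 2490 in heated replicate 1 and 574 in heated replicate 2, but 4.7 to 15.3 in the other heated hearts and 1.7 to 80.8 in control hearts. The brown fat gene Ucp1 read 5223 in control replicate 1 and 5517 in control replicate 3, against at most 16.4 on any other array. Atrial markers summed to 25620 in heated replicate 5, against 1355 to 13821 in the other heated hearts, and to 22500 and 22356 in control replicates 1 and 5, against 1043 to 3531 in the other controls. Heated replicate 5 also held the most smooth muscle transcripts, 5908, against 485.5 to 896.7 in the other heated hearts and 724.7 to 2096 in controls. Lung epithelial markers were near background on all arrays, with sums of 31.9 to 46.2 in heated and 45.8 to 85.9 in control hearts.

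**Figure D1:**
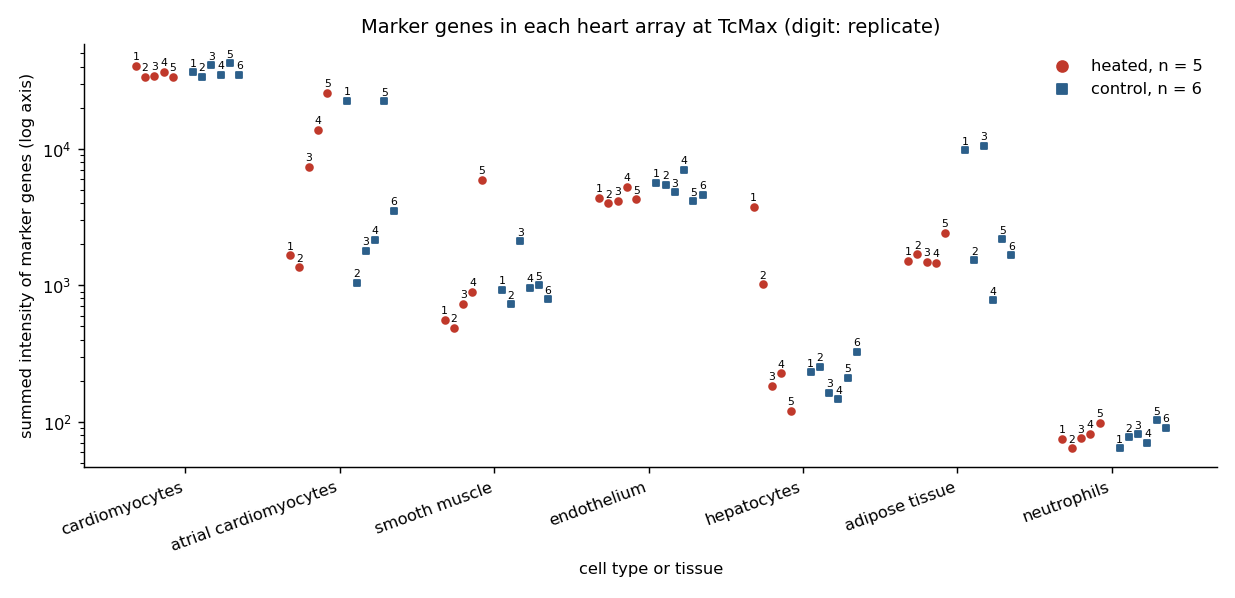
Summed intensity of marker genes for 7 cell types or tissues (log axis) in each heart array at TcMax, heated (red circles, n = 5) left of control (blue squares, n = 6), with the replicate number beside each point. Cardiomyocyte sums lie close together, while hepatocyte, fat, atrial and smooth muscle sums are high on single arrays.

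Heat moved more genes up than down. In all, 236 IDs rose (1.62%) and 53 fell (0.363%) of the 14607 tested, and the median difference of all tested IDs was -0.04. Of the risers, 20 IDs belonged to the list of heat shock proteins and cochaperones (18 genes), 80 carried no single gene name, and 136 were other named IDs for 123 genes. The 136 include IDs of Hspd1-ps2, Hspd1-ps14 and Hspd1l2, named after the chaperonin gene Hspd1 but not in that list. Of the 53 that fell, 0 were heat shock genes, 11 had no single name, and 42 were named IDs for 40 genes. The heated and control ranges did not overlap for 121 of the 136 named risers and 36 of the 42 named fallers, and the same held for 4.85% of all tested IDs. The named IDs were called on these same arrays, so their high share without overlap follows in part from that choice and is no added support. Without the 6 arrays that stood apart in markers (heated replicates 1, 2 and 5, control replicates 1, 3 and 5), 101 of the 136 risers and 17 of the 42 fallers were called again, among 115 and 44 named calls of that fit. It left 2 heated and 3 control hearts at TcMax, so a lost call does not show that the difference was gone. Among lost falls, Tnfsf10 went from -1.17 to -1.41 and Clec2d2 from -1.13 to -0.94.

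**Figure D2:**
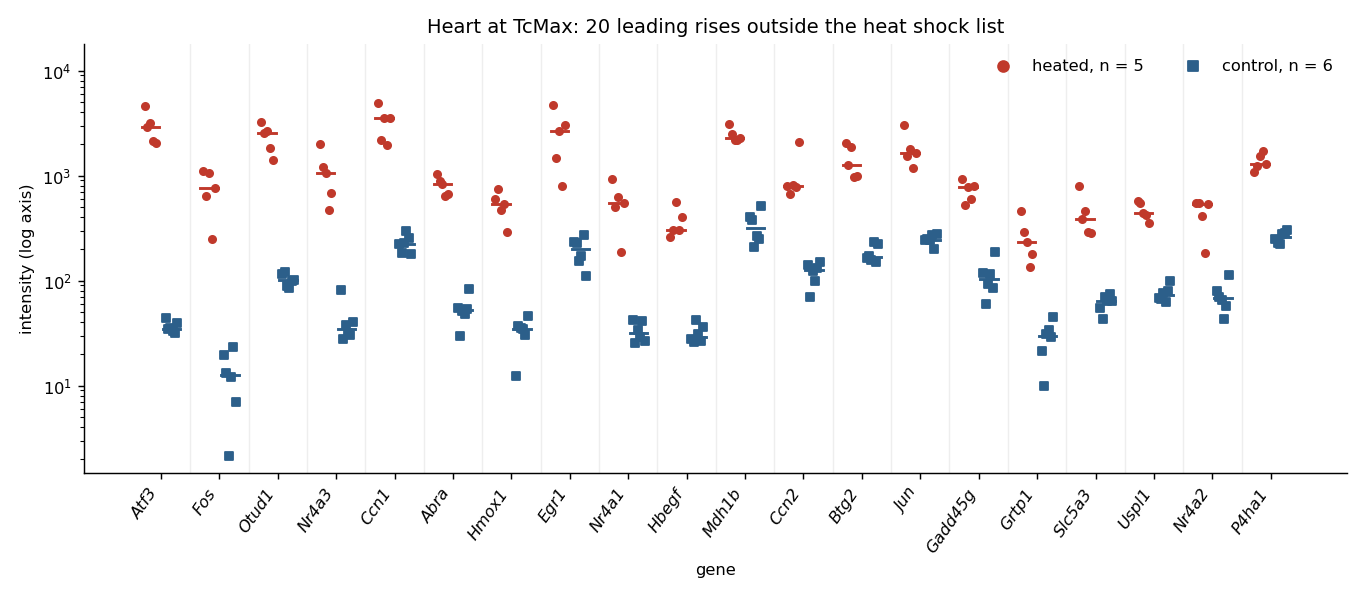
Intensity (log axis) of the 20 genes reported here outside the heat shock list with the largest rises and no overlap of groups, in heated hearts (red circles, n = 5) left of control hearts (blue squares, n = 6), with bars at the medians. For each gene every heated heart lies above every control heart.

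The leading rises were transcription factors of the immediate early class. Of 13 tested genes of the AP-1 and ATF/CREB families, which bind DNA as pairs and include Fos, Jun and Atf3, 9 rose and 0 fell, and the median difference of the 19 measured was 0.83. Of 32 tested other immediate early genes 16 rose and 0 fell, with a median of 0.91 over 36 measured. Atf3, a stress-induced repressor of the ATF family, had intensities of 4627, 2920, 3151, 2158 and 2051 in heated hearts, against 32.1 to 44.5 with a median of 34.9 in control hearts, a difference of 5.78 ± 0.22 (limma, adjusted p = 6.14e-21). It was the largest change of a named gene outside the chaperones. Fos, a partner of Jun in AP-1, read 1105, 644, 1049, 248 and 768 in heated hearts, against 2.15 to 23.3 with a median of 12.7 in control hearts (4.64 ± 0.35, adjusted p = 1.53e-12). Jun itself read 3015, 1542, 1808, 1173 and 1650 in heated hearts, against 200.3 to 276 with a median of 246 in control hearts (2.75 ± 0.16, adjusted p = 2.23e-15). Both partners therefore stood higher in each heated heart than in any control. Fosb rose by 1.96 ± 0.22 and Junb by 1.69 ± 0.24, with heated values of 184, 64.0, 136, 24.0 and 87.8 for Fosb, against 6.94 to 15.04 with a median of 9.34 in controls. For Fos and Fosb, heated replicate 4 was the lowest of the heated hearts and replicate 1 the highest.

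All 3 NR4A orphan nuclear receptors rose as well. These receptors act without a known ligand in the classical sense and are controlled mainly by how much of them is made. Nr4a3 had intensities of 1985, 1216, 1049, 467 and 680.5 in heated hearts, against 27.7 to 82.3 with a median of 34.7 in control hearts (4.14 ± 0.26, adjusted p = 7.32e-15 by limma). Nr4a1 read 932, 501, 621, 186 and 544 in heated hearts, against 25.7 to 42.1 with a median of 31.6 in control hearts (3.40 ± 0.24), and Nr4a2 differed by 2.35 ± 0.23. Heated replicate 4 was again lowest for all 3 receptors. Egr1, a zinc finger factor induced through the ERK pathway, read 4665, 1464, 2688, 805 and 3051 in heated hearts, against 111 to 269.5 with a median of 199.8 in control hearts (3.41 ± 0.30, adjusted p = 9.11e-11). Ier5, which modulates HSF1, rose by 2.00 ± 0.14 and Ier3, a survival factor, by 1.56 ± 0.20. Btg2, an antiproliferative gene, read 2032, 1276, 1891, 980.4 and 986 in heated hearts, against 151 to 236 with a median of 169 in control hearts (2.81 ± 0.20, adjusted p = 6.49e-13). Of 10 tested Kruppel-like factors, 0 rose and 0 fell, beside 1.62% and 0.363% of all tested IDs. The median of the 12 measured was 0.25, beside -0.04 for all tested IDs. Klf6 (0.85 ± 0.16) and Klf4 (0.62 ± 0.19) passed the adjusted p but not the 2-fold minimum.

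The secreted matricellular proteins Ccn1 and Ccn2, which bind integrins and are targets of YAP, rose as well. Ccn1 had intensities of 4875, 2179, 3557, 1973 and 3521 in heated hearts, against 181 to 294 with a median of 225 in control hearts (3.67 ± 0.27, adjusted p = 7.29e-13 by limma). Ccn2 read 798, 663, 810.5, 786 and 2095 in heated hearts, against 69.7 to 152 with a median of 127 in control hearts (2.85 ± 0.38, adjusted p = 1.59e-06). In the Ccn2 series, heated replicate 5 stood far above the other 4, which were close together. Hbegf, a membrane-anchored ligand of the EGF receptor, read 262, 304, 559.7, 306 and 400.0 in heated hearts, against 26.1 to 42.1 with a median of 29.4 in control hearts (2.96 ± 0.25, adjusted p = 3.79e-11). Its receptor's feedback inhibitor Errfi1 rose by 2.02 ± 0.25, with values of 1293, 1108, 1246, 1116 and 3374 in heated hearts, against 264 to 739 with a median of 308 in control hearts. Of 21 tested MAPK phosphatases and feedback genes, 4 rose (Hbegf, Errfi1, Dusp8 and Dusp1) and 0 fell, and the median of the 24 measured was 0.07. Dusp1, which dephosphorylates p38 and JNK and starts from a high level in heart, read 3302, 2319, 2619, 2155 and 4643 in heated hearts, against 828 to 1117 with a median of 976 in control hearts (1.55 ± 0.20), and Dusp8 rose by 1.84 ± 0.15.

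A few genes of clotting and fibrinolysis at the vessel wall rose. Of 17 tested, 4 rose and 0 fell, and the median of the 20 measured was 0.20. Plat, tissue plasminogen activator, read 660.1, 656, 840.2, 1039 and 755 in heated hearts, against 254 to 465 with a median of 397 in control hearts (1.02 ± 0.17, adjusted p = 7.84e-05 by limma). Each heated heart lay above all control hearts for Plat. Plaur, the urokinase receptor, rose by 1.02 ± 0.25, and Tfpi2, a protease inhibitor of the matrix, by 1.1 ± 0.19. The calls of Plat, Plaur and Tfpi2 lay at the 2-fold minimum: leaving out 1 array took Plat to between 0.91 and 1.0 (without heated replicate 3 or 4 or control replicate 3 or 5), Plaur to between 0.90 and 0.99 (without heated replicate 4 or control replicate 1, 2 or 5) and Tfpi2 to 0.96 (without heated replicate 4).

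Among 43 tested vasoactive peptides, receptors and nitric oxide synthases, 2 rose and 0 fell, with a median of -0.02 over 50 measured. Edn1, which encodes the vasoconstrictor endothelin 1, read 59.0, 71.9, 118, 103 and 484 in heated hearts, against 19.8 to 43.0 with a median of 32.7 in control hearts (1.54 ± 0.39, adjusted p = 0.00858 by limma). Rgs1, a brake on G protein signalling in leukocytes, read 73.4, 68.4, 87.7, 57.3 and 134 in heated hearts, against 9.13 to 24.0 with a median of 18.1 in control hearts (1.55 ± 0.26). Ptgs2, the inducible cyclooxygenase, read 26.0, 28.4, 104, 66.8 and 1337 in heated hearts, against 8.66 to 33.9 with a median of 16.6 in control hearts (1.84 ± 0.53, adjusted p = 0.0295). For Edn1 and Ptgs2 the highest value came from heated replicate 5, the piece with the most smooth muscle and atrial transcripts, and a part of that in these values was not tested. Without that array Edn1 differed by 1.08 (adjusted p = 0.0645) and Ptgs2 by 0.97 (adjusted p = 0.169). The call of Ptgs2 was also lost without heated replicate 3 or control replicate 2, 3 or 4 (adjusted p at least 0.0555). With limma on the 11 TcMax arrays alone its adjusted p was 0.19, and with the replicate number as a block 0.0875. Apart from Ptgs2 and the NF-kB subunit Rel (1.17 ± 0.14), 0 of the 30 tested cytokine and NF-kB genes rose and 0 fell, and of 23 tested chemokines and adhesion genes 0 rose and 0 fell. The adhesion molecule Icam1 read 105, 108, 125, 119 and 228 in heated hearts, against 37.8 to 60.9 with a median of 50.5 in control hearts, a difference of 1.15 ± 0.42 that missed the threshold (adjusted p = 0.122) although the ranges did not overlap.

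Some ubiquitin and deubiquitinase genes changed too. Of 14 tested ubiquitin and deubiquitinase genes, 4 rose and 0 fell, with a median of 0.26 over 32 measured. Otud1, a deubiquitinase, had intensities of 3268, 2551, 2641, 1832 and 1403 in heated hearts, against 84.7 to 119.6 with a median of 100.4 in control hearts (4.27 ± 0.16, adjusted p = 6.14e-21 by limma). After Atf3 and Fos it was the largest rise of a named gene outside the heat shock list, and no heated heart came near the controls. Uspl1, a SUMO protease, rose by 2.39 ± 0.13, the polyubiquitin gene Ubb by 1.31 ± 0.14 and the ubiquitin ligase Siah2 by 1.29 ± 0.14. Ubb read 1375, 1400, 1563, 1268 and 986 in heated hearts, against 478 to 567 with a median of 509 in control hearts.

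Some transcripts linked to the integrated stress response, which slows translation while ATF4 directs a repair program, rose. Activity of the pathway itself was not measured. Of 22 tested genes of this and the endoplasmic reticulum response, 3 rose and 0 fell, 6 more passed the adjusted p in the upward direction below 2-fold, and the median of the 29 measured was 0.37. Ppp1r15a, or GADD34, which restarts translation, read 661, 635, 688, 623 and 786 in heated hearts, against 169 to 239 with a median of 206 in control hearts (1.66 ± 0.13, adjusted p = 2.95e-12 by limma). Ddit3, or CHOP, rose by 1.06 ± 0.18 and the endoplasmic reticulum chaperone Pdia4 by 1.02 ± 0.24, while Atf4 itself reached 1.0 ± 0.12 and fell just short of the 2-fold minimum. Mthfd2, a mitochondrial folate enzyme known as an ATF4 target, read 114, 172, 399, 368 and 758 in heated hearts, against 64.1 to 86.2 with a median of 73.1 in control hearts (1.79 ± 0.33). Its heated values spread over a wide range, with replicate 5 highest. Leaving out 1 array took Ddit3 to between 0.96 and 0.99 (without heated replicate 3 or control replicate 1 or 6) and Pdia4 to between 0.93 and 0.98 (without heated replicate 3, 4 or 5 or control replicate 3 or 5).

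Hmox1, the heme oxygenase that opens the heme ring and is induced by NRF2 and heat, had intensities of 595, 739, 474, 533 and 293 in heated hearts, against 12.4 to 46.0 with a median of 34.9 in control hearts (3.46 ± 0.43, adjusted p = 2.72e-07 by limma). Of 12 tested NRF2, haem and metal response genes it was 1 of 2 that rose, the other being Osgin1 (1.05 ± 0.19), and 0 fell. Osgin1 dropped to between 0.91 and 0.98 without heated replicate 1 or 2 or control replicate 4. P4ha1, the collagen prolyl hydroxylase, read 1072, 1225, 1540, 1726 and 1279 in heated hearts, against 222 to 306 with a median of 263 in control hearts (2.31 ± 0.20), the single riser among 22 tested hypoxia and glycolysis genes, of which 0 fell. Matrix genes that rose with it were Adamts1, an extracellular protease (1.67 ± 0.17), and Has1, a hyaluronan synthase (1.66 ± 0.22), 3 of the 44 tested in the matrix list with 0 falls. Slc5a3, the myo-inositol transporter that loads cells with osmolyte, read 789.5, 383, 464, 288 and 286 in heated hearts, against 42.7 to 75.0 with a median of 63.8 in control hearts (2.47 ± 0.18, adjusted p = 1.46e-12). The taurine transporter Slc6a6, another osmolyte carrier, moved the other way, at 387, 208, 183, 229.7 and 297 in heated hearts, against 414 to 571 with a median of 538 in control hearts (-1.0 ± 0.21, adjusted p = 0.00134). Slc6a6 lay on the 2-fold line, and the difference shrank to between -0.99 and -0.89 without heated replicate 2, 3 or 4 or any 1 of control replicates 1 to 5.

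Targets of glucocorticoids, the adrenal steroids released in stress, rose in number. Of 21 tested, 9 rose and 0 fell, and the median of the 21 measured was 0.77. Zbtb16, a transcriptional repressor, had intensities of 704, 744, 845, 792 and 1353 in heated hearts, against 87.2 to 822 with a median of 192 in control hearts (1.90 ± 0.29, adjusted p = 1.49e-05 by limma). Fkbp5, a cochaperone of the glucocorticoid receptor, read 267, 330.3, 486, 412 and 837 in heated hearts, against 85.6 to 397 with a median of 94.0 in control hearts (1.65 ± 0.26, adjusted p = 2.17e-05). In both, control replicate 6 alone reached into the heated range, and it was also the highest control for Errfi1. Pdk4, which blocks pyruvate dehydrogenase and so spares glucose, read 1784, 1242, 2031, 1666 and 1292 in heated hearts, against 319 to 1157 with a median of 717 in control hearts (1.31 ± 0.39, adjusted p = 0.0356). Its call was lost without heated replicate 1, 3 or 4 or control replicate 2, 4 or 5, with differences of 1.13 to 1.32 and adjusted p from 0.0571 to 0.12. It was lost as well with all IDs tested (limma, adjusted p = 0.0513). Cdkn1a, or p21, rose by 1.04 ± 0.26, but to only 0.87 to 0.99 without heated replicate 2 or 3 or control replicate 3, 4 or 5. With limma on the 11 TcMax arrays alone Cdkn1a did not pass (adjusted p = 0.0757). Dusp1 and Errfi1, described above, belong to this list also, and Per1, another known target, differed by 0.84 ± 0.32 and did not pass (adjusted p = 0.148).

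Other named risers belonged to none of these lists or stood alone in theirs. Mdh1b, a malate dehydrogenase paralogue, had intensities of 3077, 2482, 2181, 2188 and 2278 in heated hearts, against 208 to 509.7 with a median of 320.2 in control hearts (2.86 ± 0.17, adjusted p = 2.23e-15 by limma), although another ID of the same symbol read -0.52. Ccdc117 rose by 2.29 ± 0.13, the noncanonical poly(A) polymerase Tent5a by 1.87 ± 0.24, Cdr2 by 1.83 ± 0.25, the hydroxylase gene Jmjd6 by 1.73 ± 0.15, the calcium homeostasis modulator Calhm2 by 1.76 ± 0.18, the mitochondrial ATP-Mg/phosphate carrier Slc25a25 by 1.71 ± 0.16 and the arrestin-related Arrdc4 by 1.34 ± 0.17. Jmjd6 read 512, 582, 522, 533 and 559.6 in heated hearts, against 114 to 206 with a median of 152 in control hearts. Apold1, an early response gene of endothelium, read 264, 256, 437, 284 and 206 in heated hearts, against 35.0 to 161 with a median of 73.4 in control hearts (1.65 ± 0.23). The 3 IDs of C11h3orf38 rose by 2.18 to 2.26, and LOC683722, which has no described role here, by 2.21 ± 0.18. Amotl2, an angiomotin of the Hippo pathway, rose by 1.22 ± 0.21. Of the BCL2 family, which decides on apoptosis, 0 of 12 tested rose or fell: Mcl1 (0.95 ± 0.12) and Pmaip1 (0.94 ± 0.20) passed the adjusted p below 2-fold.

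Calls among genes of the contractile and energy apparatus of the muscle cell were few, as among all tested IDs, of which 1.62% rose and 0.363% fell. Of 37 tested sarcomere and Z-disc genes 1 rose and 0 fell (median of the measured 0.03), of 64 tested oxidative phosphorylation genes 0 rose and 0 fell (-0.03), and of 24 tested cardiac transcription factors 0 rose and 0 fell (-0.15). Of 20 tested genes of the cardiac stress and fetal program, 2 rose (Ccn2 and Xirp1) and 0 fell, 2 more passed the adjusted p upward below 2-fold, and the median of the 21 measured was 0.31. A small group of genes known from striated muscle moved far outside these medians. Abra, an actin-binding activator of SRF signalling made in striated muscle, had intensities of 1034, 898, 835, 646 and 665 in heated hearts, against 29.5 to 83.5 with a median of 52.7 in control hearts (3.59 ± 0.23, adjusted p = 1.59e-14 by limma). Xirp1, or Xin, an actin-binding protein of the intercalated disc, read 1161, 654, 1282, 566 and 558 in heated hearts, against 219 to 284 with a median of 263 in control hearts (1.57 ± 0.36, adjusted p = 0.00388), and all 3 of its tested IDs rose (1.38 to 1.57). Every heated heart exceeded every control in both genes, and cardiomyocyte markers were level between the groups as given above. Rrad, a small GTPase that restrains L-type calcium channels, was the 1 of 30 tested calcium handling genes that fell, and 0 rose. It read 422, 187, 287, 204 and 216 in heated hearts, against 431 to 982 with a median of 685 in control hearts (-1.35 ± 0.32, adjusted p = 0.00506).

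The falls were smaller in size than the rises, and several lay in genes of vessels and leukocytes. Since whole tissue was measured, fewer cells of a type and less RNA per cell cannot be told apart in any of them. Aplnr, the receptor for apelin and Elabela on endothelial cells, had intensities of 164, 127, 100.0, 156 and 55.8 in heated hearts, against 279.8 to 944 with a median of 561 in control hearts (-2.06 ± 0.29, adjusted p = 4.18e-06 by limma), and was the largest fall of a named gene. Sox18, a SOX factor of endothelium, read 73.3, 84.4, 92.8, 138 and 53.6 in heated hearts, against 209 to 373 with a median of 243 in control hearts (-1.42 ± 0.21, adjusted p = 7.65e-06). In neither gene did the ranges overlap. They were 2 of 43 tested endothelial identity genes that fell, with 0 rises and a median of -0.04 over the 44 measured, equal to the median of all tested IDs. The smaller set of endothelial markers lay lower: the median difference of the 6 measured was -0.35, with -0.74 for Tie1 (adjusted p = 0.0108 by limma, below 2-fold), -0.63 for Egfl7 and -0.50 for Tek, and 0 of the 6 were called. Their summed intensity was 3993 to 5269 in heated hearts and 4130 to 6992 in control hearts, and their part in the falls of Aplnr and Sox18 was not tested. Kcnj8, the pore of a vascular and pericyte ATP-sensitive potassium channel, read 142, 168, 119, 167 and 138 in heated hearts, against 231 to 502 with a median of 346 in control hearts (-1.09 ± 0.25, adjusted p = 0.00325), and was the 1 of 31 tested ion channel and gap junction genes that fell, with 0 rises. Without control replicate 2 its difference was -0.97. Pxdn, a peroxidase that cross-links basement membrane collagen, fell by 1.19 and 1.0 at its 2 IDs.

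**Figure D3:**
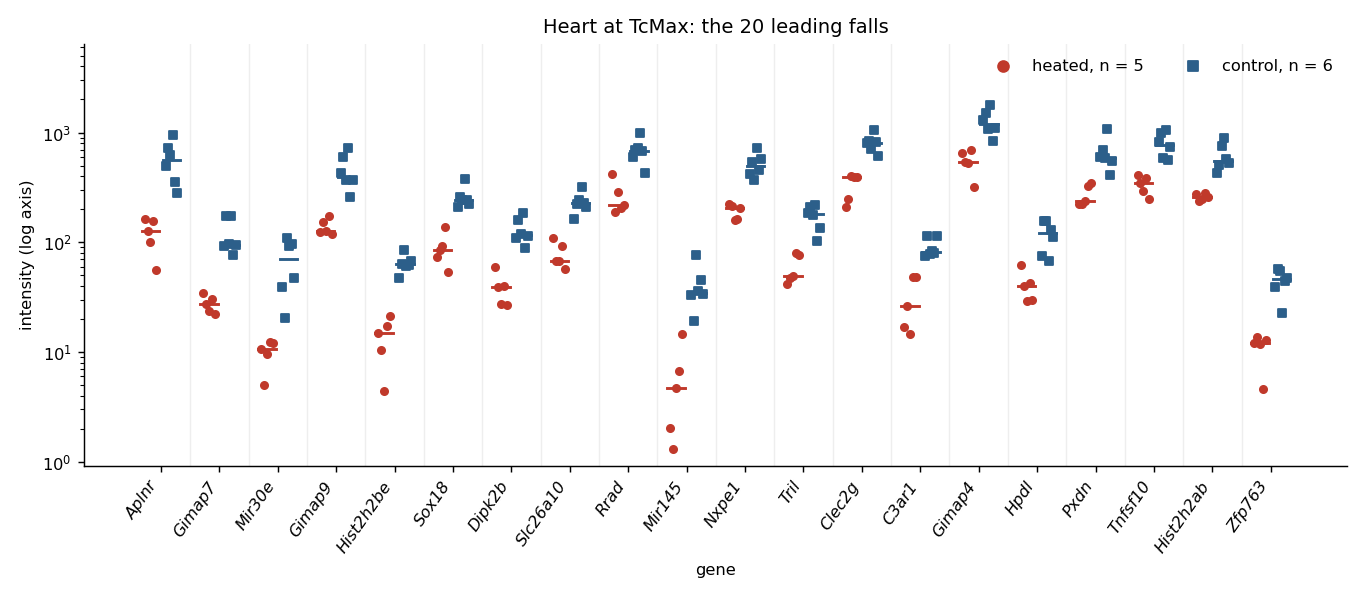
Intensity (log axis) of the 20 named genes with the largest falls and no overlap of groups, in heated hearts (red circles, n = 5) left of control hearts (blue squares, n = 6), with bars at the medians. Heated hearts lie below all controls for each gene, and the dimmest, Mir145, reads 1.31 to 14.7 in heated hearts.

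GIMAP genes, a cluster of small GTPases best known from lymphocytes, fell together. Of 29 tested lymphocyte and natural killer genes 4 fell and 0 rose, with a median of -0.20 over 31 measured, and all 4 were GIMAPs. Gimap7 had intensities of 34.3, 27.4, 23.6, 30.4 and 22.4 in heated hearts, against 77.0 to 173 with a median of 95.3 in control hearts (-1.56 ± 0.25, adjusted p = 3.28e-05 by limma). Gimap9 read 123, 154, 128, 175 and 119 in heated hearts, against 260.4 to 726 with a median of 397 in control hearts (-1.54 ± 0.22), and Gimap4 read 656, 538, 523, 692 and 317 in heated hearts, against 839 to 1787 with a median of 1195 in control hearts (-1.20 ± 0.21). For these 3 the ranges were apart. Gimap6 differed by -1.06 ± 0.21 and slipped to between -1.0 and -0.97 without heated replicate 2 or control replicate 2 or 4, and Gimap5 passed the adjusted p at -0.94, below 2-fold. Of 8 tested markers of T, B and natural killer cells 0 rose and 0 fell. Cd3d, Cd79b, Klrd1, Ms4a1, Cd2 and Lck lay lower in heated hearts (-0.32 to -0.09). Cd3e, Nkg7 and Prf1 lay higher (0.08 to 0.48). The T and B cell markers were dim, where the offset understates a change (Cd3d median 5.8 in heated and 11.3 in control hearts). The markers summed to 516.6 to 956.5 in heated hearts and 408.3 to 960.9 in control hearts. Most of each sum came from Nkg7, Klrd1 and Prf1. A part of fewer lymphocytes in the GIMAP falls was not tested. Interferon-stimulated genes had the lowest median of all 35 lists, -0.30 over 29 measured, yet 0 of 25 tested fell or rose, and 3 passed the adjusted p below 2-fold, among them Rsad2 (-0.87 ± 0.22) and Gbp5 (-0.77 ± 0.20). The list median may be read against -0.04 for all tested IDs.

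Further immune and signalling genes were among the falls. Tnfsf10, or TRAIL, a death receptor ligand, had intensities of 411, 346, 293, 383 and 249.9 in heated hearts, against 558 to 1056 with a median of 776 in control hearts (-1.17 ± 0.30, adjusted p = 0.01 by limma). The C-type lectin genes Clec2g (-1.27 ± 0.22) and Clec2d2 (-1.13 ± 0.16) fell, Clec2d2 reaching -0.99 without heated replicate 1. Tril, a partner of toll-like receptors, read 41.6, 47.1, 48.9, 80.0 and 76.6 in heated hearts, against 103 to 218 with a median of 180.4 in control hearts (-1.32 ± 0.19). C3ar1, the receptor for complement fragment C3a, fell by 1.25 ± 0.37 (adjusted p = 0.0388), a call lost without any 1 of heated replicates 1 to 3 or control replicates 2 to 6, with adjusted p from 0.054 to 0.134. With all IDs tested C3ar1 did not pass either (limma, adjusted p = 0.0546). Srsf5, a splicing factor, read 421, 328, 344, 319 and 312 in heated hearts, against 516 to 1175 with a median of 768 in control hearts (-1.11 ± 0.15, adjusted p = 2.59e-06), and -0.98 without control replicate 4. The histone genes Hist2h2be (-1.46 ± 0.14) and Hist2h2ab (-1.15 ± 0.26 at both IDs) fell, but histone copies are nearly identical and their IDs may share signal. Dipk2b (-1.41 ± 0.22), Nxpe1 (-1.32 ± 0.32), Hpdl (-1.19 ± 0.26) and Zfp763 (-1.14 ± 0.15) fell with groups apart, as did the anion transporter family gene Slc26a10 (-1.38 ± 0.40), whose call was lost without heated replicate 2, 3 or 5 or control replicate 3, 4 or 5 (adjusted p from 0.0507 to 0.0779). Evi2a fell at 1 of its 2 tested IDs (-1.09 ± 0.27) while the other read 0.16, and the call was lost without heated replicates 1 and 2 (adjusted p = 0.0991) or without control replicates 1 and 3 (adjusted p = 0.0534).

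Transcripts of 2 microRNA genes fell beyond all controls. The array probes the precursor transcript and not the mature microRNA, and these IDs were dim. Mir30e read 10.6, 5.04, 9.61, 12.3 and 12.0 in heated hearts, against 20.3 to 109.6 with a median of 69.7 in control hearts (-1.56 ± 0.25, adjusted p = 2.81e-05 by limma). Mir145, known from smooth muscle, read 2.02, 1.31, 4.73, 6.73 and 14.7 in heated hearts, against 19.0 to 76.0 with a median of 34.8 in control hearts (-1.33 ± 0.20, adjusted p = 1.16e-05). Mir143, its neighbour on the same strand, was added after its values were seen. It ranged from 5.26 to 30.1 with a median of 10.3 in heated hearts and from 18.2 to 135 with a median of 43.6 in control hearts, so that the groups overlapped, and differed by -1.17 ± 0.28 (adjusted p = 0.00618). Of 5 tested smooth muscle markers 0 rose or fell. Their sums were 556.9, 485.5, 732.7, 896.7 and 5908 in heated hearts, against 724.7 to 2096 in control hearts. Among heated hearts Mir145 had the same order as these sums, and a part of smooth muscle content in its fall was not tested. Mir505 (-1.03 ± 0.22, adjusted p = 0.00194 by limma) and Mir3546 (-1.11 ± 0.28, adjusted p = 0.00936) were called lower as well, also with overlapping groups. The mature products of Mir30e, Mir145 and Mir143 are printed so that the molecules of these 3 genes can be told apart. They are from RefSeq on GRCr8 in the 5′ to 3′ direction with the seed, bases 2 to 8, in capitals. Mir30e lies at chr5:139637504-139637525 for its 5p product, and those of Mir145 and Mir143 lie between positions 57369997 and 57371428 of chromosome 18, all on the minus strand.
rno-miR-30e-5p: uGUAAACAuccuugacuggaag
rno-miR-145-5p: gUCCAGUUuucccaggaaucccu
rno-miR-145-3p: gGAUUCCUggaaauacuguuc
rno-miR-143-5p: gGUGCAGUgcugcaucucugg
rno-miR-143-3p: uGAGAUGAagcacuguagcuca
No 2 of these 5 share a seed, although the genes of miR-143 and miR-145 adjoin each other.

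**Figure D4:**
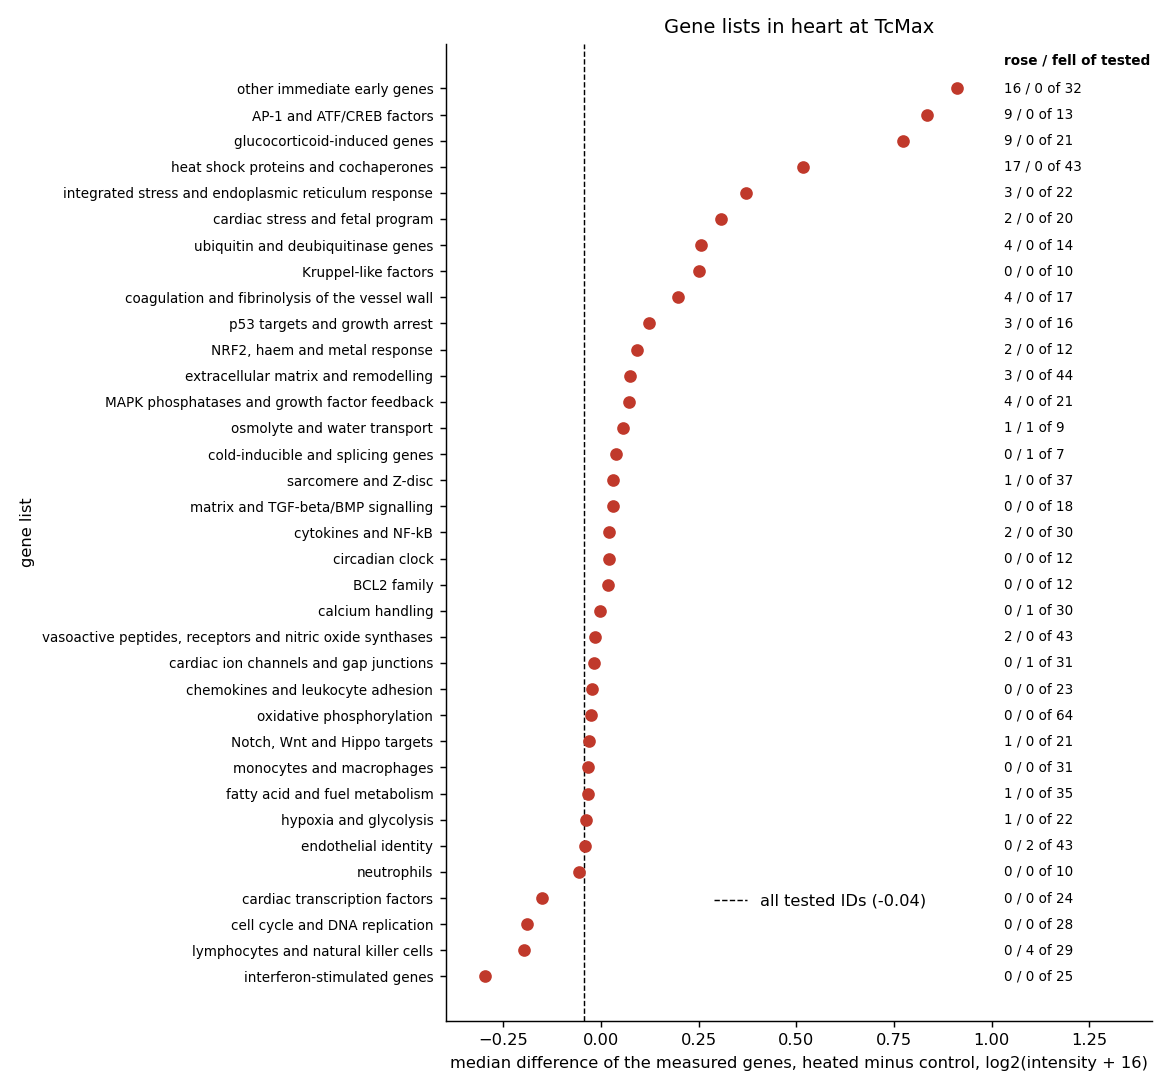
Median difference (heated minus control, log2 of intensity plus 16) of the measured genes of each of 35 gene lists in heart at TcMax, with the numbers that rose and fell of those tested at the right and the median of all tested IDs (-0.04) as a dashed line. Immediate early, AP-1, glucocorticoid and heat shock lists lie furthest right, and interferon, lymphocyte and cell cycle lists furthest left.

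Of the 35 lists, 19 held at least 1 gene that rose, 6 at least 1 that fell and 11 had no call in either direction. The lists without a call included the circadian clock (0 of 12 tested), neutrophils (0 of 10), monocytes and macrophages (0 of 31), TGF-beta and BMP signalling (0 of 18), and cell cycle and DNA replication (0 of 28, median -0.19). Of all tested IDs 1.62% rose and 0.363% fell, so few calls would be found in any list of this size. In 2 other lists without a call, genes passed the adjusted p below 2-fold: 1 upward and 3 downward for chemokines and adhesion, 3 upward and 1 downward for the BCL2 family. These lists share members in part, and no list was tested as a set.

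To see what was particular to heart, each rat's response in heart was set against its response in liver, kidney or lung, in 5 heated and 6 control rats with arrays of both organs. Most of the named genes that rose in heart also rose elsewhere. Of the 136 named risers outside the heat shock list, 41 rose in all 3 other organs, 23 in 2, 23 in 1 and 49 in heart alone. Of the 42 fallers, 1 fell in all 3 other organs, 5 in 2, 15 in 1 and 21 in heart alone. The IDs that varied most were chosen in each organ apart, and an ID not tested in an organ counts as not called there. A call in heart alone does not show that the organs differ, so the difference itself was tested with limma within rats. Over all 14607 IDs, the responses differed between heart and liver for 1.96%, heart and kidney for 0.582% and heart and lung for 1.2%. Among the 136 risers the response was larger in heart than in liver for 37 (smaller for 4), than in kidney for 31 (smaller for 1) and than in lung for 39 (smaller for 3: Pdk4, Hspd1-ps2 and Hspd1-ps14). Because these IDs were chosen for their change in heart, which enters each of these differences, the shares describe the genes and are no independent count.

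The rise was larger in heart than in each of the 3 other organs for 18 IDs, of which 17 were named outside the heat shock list, for 13 genes. No fall was. Otud1 stood out, with a difference of 4.27 ± 0.16 in heart beside 0.05 for liver, 0.17 for kidney and 0.08 for lung, and within rats the heart response exceeded the others by 4.25 against liver, 4.15 against kidney and 4.18 against lung (adjusted p at most 3.74e-07). Abra differed by 3.59 ± 0.23 in heart beside -0.02 for liver, 0.87 for kidney and 0.13 for lung, with within-rat differences of 3.62 against liver, 2.69 against kidney and 3.42 against lung. Gadd45g, a stress sensor of the GADD45 family, read 935, 524, 784, 600.5 and 788 in heated hearts, against 59.3 to 187 with a median of 104 in control hearts (2.60 ± 0.26), while it differed by -0.47 for liver, -0.58 for kidney and -0.49 for lung, none of them called. Its within-rat differences were 2.92 against liver, 3.07 against kidney and 3.07 against lung. Hbegf and Btg2 also rose in liver, by 1.44 and 1.12, but still less than in heart within rats (1.62 against liver, 2.41 against kidney and 2.14 against lung for Hbegf). Btg2 exceeded the others by 1.71 against liver, 2.18 against kidney and 2.75 against lung.

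The other 8 of the 13 genes were called in no other organ, where an ID not tested counts as not called. Grtp1, a growth hormone regulated TBC-domain gene, had intensities of 461, 293, 234, 136 and 179 in heated hearts, against 9.93 to 44.6 with a median of 30.0 in control hearts (2.58 ± 0.25 in heart, -0.06 for liver, -0.08 for kidney and -0.06 for lung). Of its 11 tested IDs 6 rose and 4 were larger in heart than in each other organ, while 5 did not pass, with the lowest at -0.21. Klhl34, a kelch-like gene, read 103, 76.3, 60.9, 79.2 and 62.0 in heated hearts, against 13.7 to 18.2 with a median of 16.8 in control hearts (1.50 ± 0.15 in heart, -0.08 for liver, 0.01 for kidney and 0.16 for lung). Nle1, a ribosome assembly factor, read 226, 122, 131, 96.7 and 113 in heated hearts, against 24.1 to 56.4 with a median of 39.8 in control hearts (1.41 ± 0.17 in heart, -0.60 for liver, -0.06 for kidney and 0.01 for lung). For each of these 3, every heated heart lay above all control hearts. Fabp9, a fatty acid binding protein known from testis, read 53.7, 34.2, 54.6, 93.9 and 25.9 in heated hearts, against 1.99 to 8.86 with a median of 6.03 in control hearts, and is among the dim IDs of the array. Rnd1, a small GTPase, read 189, 233, 409, 439 and 241 in heated hearts, against 35.3 to 91.3 with a median of 62.4 in control hearts (1.93 ± 0.29 in heart, 0.43 for liver, 0.71 for kidney and -0.12 for lung). Ier5 differed by 0.32 for liver, 0.44 for kidney and -0.04 for lung, Ier3 by 0.52 for liver, -0.07 for kidney and 0.24 for lung and Xirp1 by -0.15 for liver, -0.07 for kidney and -0.09 for lung, beside the heart values above. Some of these rest on few rats: with 1 array left out at a time, the adjusted p of the weakest of the 3 comparisons passed 0.05 for Ier3 without any of 10 arrays (0.0528 to 0.0976; not without heated replicate 4), for Rnd1 without heated replicate 3, 4 or 5 or control replicate 1, 2, 3 or 5 (0.0518 to 0.103), for Fabp9 without heated replicate 1, 3 or 4 or control replicate 3 (0.0513 to 0.0805) and for Nle1 without heated replicate 3 (0.0507). Other settings took more genes past 0.05: an offset of 1 did so for 6 (Hbegf, Btg2, Ier5, Rnd1, Xirp1 and Ier3, 0.0639 to 0.58) and a replicate block for 5 (Ier5, Rnd1, Fabp9, Xirp1 and Ier3, 0.0531 to 0.113). Leaving out the arrays that stood apart in markers did so as well, for 6 without heated replicates 1 and 2 (Btg2, Ier5, Fabp9, Xirp1, Ier3 and Nle1), for 7 without control replicates 1 and 3 (the same 6 and Rnd1) and for 5 without heated replicate 5 and control replicates 1 and 5 (Hbegf, Btg2, Ier5, Rnd1 and Ier3). Without all 6 of these arrays, a test with 2 heated and 3 control rats, Otud1 alone passed, and it was the 1 gene of the 13 that passed under every alternative with a value. Abra, Gadd45g, Grtp1 and Klhl34 failed in that last test only.

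**Figure D5:**
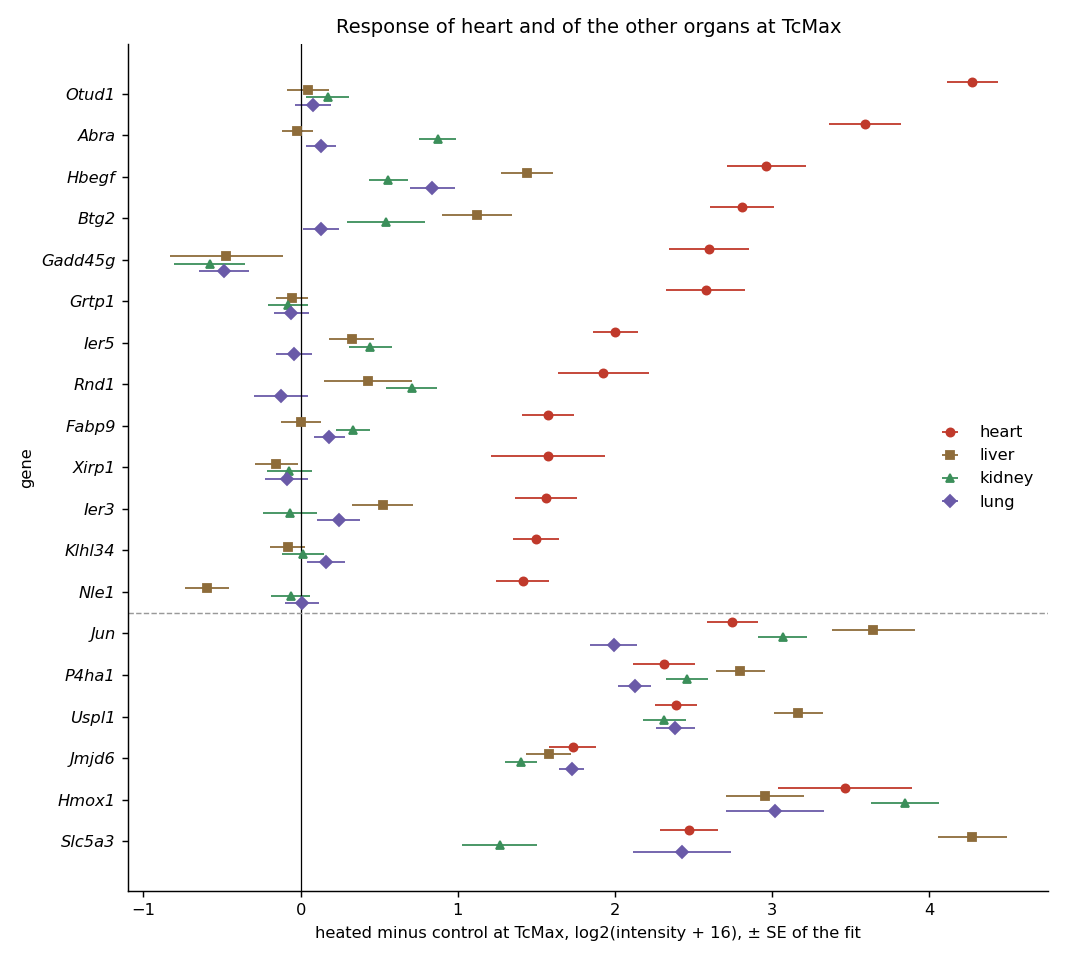
Difference between heated and control rats at TcMax (log2 of intensity plus 16, ± SE of the fit) in heart, liver, kidney and lung. Above the dashed line are the 13 genes whose rise was larger in heart than in each other organ within rats, and below it, for comparison, 6 genes called in all 4 organs, picked after their values were seen.

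No fall passed the within-rat test against all 3 other organs, although 21 of the 42 were called in heart alone, and a missed threshold does not show that the organs fell alike. In 1 fit with the rat as a random block, 6 falls (3 of them named) passed against all 3. Gimap7 fell more in heart than in liver (within-rat difference -1.27, adjusted p = 0.0188 by limma) and kidney (-1.45, adjusted p = 0.00281), but it also fell in lung by 1.30, and the difference from lung was -0.24. Dipk2b fell more in heart than in liver (-1.49) and kidney (-1.36), with -0.62 against lung. Rrad fell more in heart than in liver (-1.36, adjusted p = 0.0117) and lung (-1.08, adjusted p = 0.0242), and its difference from kidney, -1.66, missed the threshold (adjusted p = 0.0605), while Rrad itself differed by 0.04 for liver, 0.44 for kidney and -0.25 for lung. Aplnr fell in lung by 1.90 as well, and exceeded liver alone (-1.59). A smaller response in heart was found for Slc5a3, which rose by 2.47 in heart and 4.28 in liver (within-rat difference -1.80, adjusted p = 0.000886), for Noct, a clock-linked phosphatase, at 1.31 in heart and 3.96 in liver (-2.79), and for Tsc22d3, the glucocorticoid-induced leucine zipper, at 1.34 in heart and 2.43 in liver (-1.11). Pdk4 rose by 1.31 in heart, 2.81 in kidney and 2.86 in lung (-1.52 and -1.54), and Klf6 differed by 0.85 in heart and 2.96 in liver (-1.99, adjusted p = 0.000626). Jun, P4ha1, Jmjd6 and Hmox1 were called in all 4 organs, and the within-rat tests against each organ did not pass for any of the 4 (adjusted p at least 0.0913).

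Promoters of the genes that rose were searched for 2 elements on both strands in the RefSeq window of 250 bases before and 50 after the start. The heat shock element, the HSF1 site, was taken as GAA, any 2 bases, TTC, any 2 bases, GAA, or its reverse complement, and the cyclic AMP response element, bound by CREB and ATF proteins, as TGACGTCA. The heat shock element was in 1 of 90 promoters of risers outside the heat shock list (1.11%, Osgin1) and in 5 of 14 of risers in that list (35.7%), beside 47 of 7204 of all tested genes (0.652%). The cyclic AMP response element was in 8 of the 90 (8.89%; Btg2, Ch25h, Dusp1, Has1, Lmcd1, Maff, Ppp1r15a and Slc25a25), in 0 of the 14 and in 158 of the 7204 (2.19%). Neither was in any of the 26 promoters of genes that fell. The windows of 4 genes are printed on GRCr8, each on the gene's own strand, with the element in capitals, to show the element in a gene larger in heart than elsewhere (Btg2), in 2 genes of translation control and matrix (Ppp1r15a, Has1), and the single heat shock element (Osgin1). They lie at chr13:48087641-48087940 (minus strand), chr1:105139547-105139846 (minus), chr1:67378395-67378694 (minus) and chr19:64393651-64393950 (plus).
Btg2: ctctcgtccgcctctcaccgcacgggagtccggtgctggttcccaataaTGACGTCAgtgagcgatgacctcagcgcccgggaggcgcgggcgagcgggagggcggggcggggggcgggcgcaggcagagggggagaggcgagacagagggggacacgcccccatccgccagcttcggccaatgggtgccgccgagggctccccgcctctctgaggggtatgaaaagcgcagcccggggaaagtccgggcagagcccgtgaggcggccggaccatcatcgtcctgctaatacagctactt
Ppp1r15a: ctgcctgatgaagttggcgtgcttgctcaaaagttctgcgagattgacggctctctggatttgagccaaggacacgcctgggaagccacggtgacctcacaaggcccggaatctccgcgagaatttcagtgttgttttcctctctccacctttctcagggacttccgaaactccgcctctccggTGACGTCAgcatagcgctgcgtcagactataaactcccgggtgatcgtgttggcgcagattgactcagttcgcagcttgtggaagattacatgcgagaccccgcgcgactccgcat
Has1: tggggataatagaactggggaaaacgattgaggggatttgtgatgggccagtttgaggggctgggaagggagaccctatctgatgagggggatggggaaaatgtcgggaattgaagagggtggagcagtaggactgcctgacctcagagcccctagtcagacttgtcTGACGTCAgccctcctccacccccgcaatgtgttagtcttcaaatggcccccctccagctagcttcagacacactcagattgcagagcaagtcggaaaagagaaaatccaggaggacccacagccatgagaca
Osgin1: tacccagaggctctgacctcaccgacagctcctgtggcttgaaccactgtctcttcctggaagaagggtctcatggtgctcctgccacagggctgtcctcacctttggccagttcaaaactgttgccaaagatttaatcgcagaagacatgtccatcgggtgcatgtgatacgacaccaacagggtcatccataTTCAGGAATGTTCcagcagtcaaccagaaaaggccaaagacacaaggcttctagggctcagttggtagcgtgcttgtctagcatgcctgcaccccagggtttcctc
Such a match describes the letters of the window and was not tested as a binding site.

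Hearts taken later held few calls among these genes. At 24 hours 0 of the 136 named risers were called in the same direction, at a time when 0.0137% of all tested IDs rose, and their median difference was 0.16, beside 0.02 for all tested IDs. At 48 hours 6 were called (4.41%), beside 2.57% of all tested IDs, with a median of 0.14 over the 136 and 0.035 over all tested IDs. They included Hmox1 (1.81 ± 0.41), Ccn2 (1.48 ± 0.37), Tnfrsf12a, the receptor for TWEAK (1.31 ± 0.30), Plaur (1.12 ± 0.24) and Rnd1 (1.08 ± 0.28). Of the 42 fallers 0 were called lower again at 24 hours, when 0.00685% of all tested IDs fell, and 1 at 48 hours (2.38%), beside 1.88% of all tested IDs, with medians of -0.02 at both times. That gene was Slc26a10, lower again at 48 hours (-1.09 ± 0.38), and C3ar1, lower at TcMax, was higher at 48 hours (1.13 ± 0.36, adjusted p = 0.0278 by limma). At 24 hours Atf3 differed by 0.30, Fos by 0.27, Otud1 by 0.14 and Abra by 0.23, none of them called. Heated hearts at 48 hours varied most among themselves, with a mean correlation to the rest of their group of 0.715 to 0.882, against 0.921 to 0.958 for heated hearts at TcMax.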

How the data were processed

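RNA of 140 organ pieces was hybridised to Affymetrix Rat Gene 1.1 ST arrays, 35 of them from heart. The authors summarised and normalised the arrays of each organ separately with iterPLIER (Affymetrix Expression Console 1.1), and the deposited intensity values are linear, with the offset of 16 described in the methods not yet added. Here they were taken to log2(intensity + 16), a step the authors describe, and the 14607 of 29214 IDs with the larger standard deviation over the 35 heart arrays (50%) were tested with limma 3.58.1 in R 4.3.3, with a mean for each of 6 groups and moderated variances. In place of the two-way analysis of the methods, limma shared the spread between IDs, and the version without moderation was run as an alternative. A call needed a Benjamini-Hochberg adjusted p under 0.05 and at least 2-fold. For organ comparisons, the value of the other organ was subtracted from that of heart within each rat, matched by the rat tag, and the 5 heated were compared with the 6 control rats. Arrays have no read depth, so their number and the signal limit the precision.

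Gene names came from the platform annotation (18644 IDs with 1 symbol) and, for 138 more IDs, from symbols in the study's supplementary lists, and 10432 IDs were left unnamed, 962 of them for naming several genes. Named were genes outside the heat shock list: the 40 largest rises and 25 largest falls among calls with groups apart, those whose response differed from each other organ, and, of each list, up to 4 called members or up to 2 uncalled ones. A gene that met this rule is not reported here, but stays in the counts over all IDs and lists. A gene with several IDs is given by the ID with the largest difference, and in list counts by the brightest ID. The lists, markers and naming rule were chosen with earlier results of these data known. Promoters and microRNAs are from RefSeq tables on GRCr8, which held 90 of 123 risers, 26 of 40 fallers and 7204 of 8988 tested genes. The scripts were tested on simulated data. Of changes set at 2-fold in brighter IDs, 42% were called in heart and 43% to 57% passed the within-rat tests. At 3-fold these were 96% and 84% to 90%. A missing call therefore does not show that nothing changed. Alternatives were other filters, offset, normalisation, samples, variances, blocks, minimum fold and each array left out.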

Additional observations from a re-analysis of the deposited data

Results flagged for a closer look

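Of 178 groups of values of the named genes tested for a single array far from the rest, 12 had one, while chance alone gives about 1 in 20. Heated replicate 5 was far above the other heated hearts for Ccn2 (2095, next 810.5), Errfi1 (3374, next 1293), Zbtb16 (1353, next 845.0) and Tent5a (1642, next 930.1). Control replicate 6 was far above the other controls for Errfi1 (739, next 341.7) and Fkbp5 (397, next 142) and below them for Slc6a6 (414, next 531). Heated replicate 4 was low for Nr4a2 (184, next 411) and Zfp763 (4.61, next 11.9), and heated replicate 1 for Ccdc117 (747, next 872.5). Control replicate 1 was high for Nr4a3 (82.3, next 40.3) and control replicate 4 for Sox18 (373, next 258.5).

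For 13 genes the rise differed between organs, being larger in heart than in each of liver, kidney and lung within rats. The smallest of the 3 differences was 4.15 for Otud1, 2.92 for Gadd45g, 2.69 for Abra, 2.62 for Grtp1, 1.71 for Btg2, 1.62 for Hbegf, 1.55 for Ier5, 1.53 for Xirp1, 1.35 for Nle1, 1.34 for Klhl34, 1.33 for Fabp9, 1.24 for Rnd1 and 1.07 for Ier3.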

How the results depend on the processing

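Of 89 named genes that were called, 62 were called under each of 23 alternatives with a value, 27 lost the call under at least 1 and 0 turned sign, and 72 kept it with each single array left out. Against 236 rises and 53 falls, no minimum fold gave 492 and 352, and an offset of 1 gave 149 falls. Against 136 named rises and 42 named falls outside the heat shock list, no minimum fold gave 296 and 256, and an offset of 1 gave 93 falls. Rises called in heart alone (62) were 38 without dim IDs, 98 with an offset of 1 and 229 with no minimum fold. Falls called in heart alone (29) were 107 with an offset of 1, 277 with no minimum fold, 16 without heated replicates 1 and 2, and 45 without heated replicate 5 and control replicates 1 and 5. Rises larger in heart than in each other organ (18, of which 17 named) were 11 without dim IDs, 7 with an offset of 1, 30 (27 named) in 1 fit with the rat as a random block, 7 without heated replicates 1 and 2, 6 without control replicates 1 and 3, 9 without heated replicate 5 and control replicates 1 and 5, and 1 without all 6. These counts by marker arrays were chosen after seeing the data. Falls larger in heart (0) were 1 with an offset of 1, 1 (named) with the prefix of the rat tag as a block, and 6 (3 named) with the random block. The cause was not tested. Without any 1 array, rises ranged from 216 to 261 (named 127 to 159, heart alone 53 to 84), falls from 38 to 69 (named 30 to 51, heart alone 21 to 43), rises larger in heart from 12 to 20 (named 11 to 20; 11 without heated replicate 3) and falls larger in heart from 0 to 4 (named 0 to 2; 4 without control replicate 6 and 1 without control replicate 2). The replicate numbers were not taken as pairs. Deviations of same-numbered hearts correlated from -0.30 to 0.41, and 2 of 5 matched their own number best, which does not settle whether the numbers pair the samples. With the replicate block, 255 rose and 75 fell, 48 falls were in heart alone and 9 rises were larger in heart.

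The heart fit rests on 5 against 6 rats, and dim IDs such as Mir145, Fabp9 and Zfp763 lie where the offset of 16 sets much of the value. Pieces differed in atrial, smooth muscle, fat and liver transcripts. Tested IDs were chosen by their spread over all heart arrays, including the variable 48 hour group.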
